A study of Mus musculus with 60 samples.

Results

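The mammalian oxidative phosphorylation subunits that are encoded in the nucleus were followed in liver macrophages after acute chemical injury. The members were the rows of the count table whose mouse symbol begins with Nduf followed by a, b, c, s or v and a digit, is Sdha to Sdhd, or begins with Uqcr, with Cox4 to Cox8, or with Atp5. This gave 84 of 24411 genes: 37 for complex I, 4 for complex II, 8 for complex III, 18 for complex IV and 17 for complex V. Complexes were assigned by symbol alone, whatever the place of the product. Ndufa4 therefore counts in complex I, Cox7a2l in complex IV, and Atp5s and Atp5sl in complex V. The rule used names alone and no measured value, although it was chosen with earlier results of these data known. The table holds no gene with a mitochondrial (mt-) name, so the subunits encoded in mitochondrial DNA were not analysed here.

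Kupffer cells, macrophages that reside in the liver sinusoids, came from 15 C57BL/6J mice, labelled male, which the sex-linked transcripts of 7 libraries go against, and 8 weeks old. In each of 3 groups were 5 mice, taken 12 h after treatment: wild type with corn oil, wild type with carbon tetrachloride (CCl4, a hepatotoxin; a single dose of 2 µl per g, given as a 1:4 dilution in the oil), and Trem1-deficient with the same CCl4 dose. Trem1 is a receptor that amplifies inflammatory signalling in myeloid cells; the sources used here do not give how the deficient allele was made. There was no Trem1-deficient group given oil, so an effect of the genotype without CCl4 was not measured. Cells were obtained by collagenase digestion and a density gradient, then by removing cells that bound CD11b beads and taking F4/80-positive cells from the remainder.

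Oxidative phosphorylation passes electrons from NADH and succinate along complexes I to IV of the inner mitochondrial membrane to oxygen, and complex V uses the proton gradient built on the way to make ATP. Complexes I, III, IV and V combine nuclear-encoded subunits with subunits from mitochondrial DNA, while complex II is wholly nuclear-encoded. Macrophages are known to shift between respiration and glycolysis when activated, and resident tissue macrophages generally rely on respiration.

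The libraries were 3' tag libraries, in which a read count follows the number of transcripts and needs no length correction. Gene counts totalled 812320 to 2593004 per mouse, so that 3 counts correspond to 1.16 to 3.69 CPM, counts scaled to a common library size. Levels below are CPM after TMM scaling, which corrects for differences in library composition, and differences are log2 ratios with their standard error from edgeR's quasi-likelihood fit. Trem1 ranged from 32.4 to 107 CPM with oil, from 109 to 566 in wild type with CCl4 and from 1.16 to 10.7 in the Trem1-deficient mice, so the genotype labels held in all 5 deficient mice. The summed level of 15 Kupffer cell markers ranged from 32847 to 78684 CPM of the gene total with oil, from 6089.9 to 18902 in wild type with CCl4 and from 57385 to 71219 in Trem1-deficient mice. That of 20 hepatocyte genes ranged from 3800.6 to 17031, from 17465 to 57427 and from 2699.2 to 27397 in the same order. The defining Kupffer marker Clec4f was present in every mouse, but the wild type CCl4 mice lay below all others. It was at 1182 to 2826 CPM with oil, 120 to 566 in wild type with CCl4 and 881 to 1595 in Trem1-deficient mice. At an edgeR adjusted p under 0.05, 12 of 15 Kupffer markers fell in wild type CCl4 against oil. In Trem1-deficient against wild type CCl4 mice, 12 of 15 were higher. Of all tested genes, 5.13% and 2.06% were called in these comparisons, in either direction. Of the hepatocyte genes, 5 of 20 rose and 2 were lower in the same comparisons, of 12 monocyte genes 6 and 3, and of 9 tested neutrophil genes 3 and 1; no marker of these lists was at 0 throughout a group. These marker levels moved with the groups, and their part in the results below was not tested; in bulk samples fewer cells of a type and less RNA per cell cannot be told apart. The library index numbers form 2 runs. One holds all oil mice with Trem1-deficient mice 1 and 2, and the other holds Trem1-deficient mice 3 to 5 with every wild type mouse given CCl4. Sex-linked transcripts followed these runs and went against the male label of the first. Its 7 libraries held 72 to 1552 counts of Xist, the transcript of the inactive X chromosome, and at most 7 counts of Y-linked genes, with 0 in every oil mouse. The other 8 libraries held 1 to 31 Xist counts and 134 to 425 Y-linked counts. Wild type CCl4 against oil therefore cannot be told apart from the index run or from the sex that these transcripts mark, and this holds for every value of that comparison below. Both comparisons with Trem1-deficient mice mix the 2 kinds of library in the deficient group. Over all genes, the comparison of wild type CCl4 with oil called 274 genes higher and 188 lower under TMM, but 200 and 216 under upper-quartile scaling and 215 and 315 when scaled by gene totals alone. Trem1-deficient against wild type CCl4 gave 70 higher and 115 lower under TMM, 86 and 72 under upper-quartile scaling and 215 and 95 by gene totals.

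Counts were found for 79 of the 84 members, and 72 had enough to be tested (34, 4, 8, 11 and 15 of complexes I to V). The members took 239812 of 23300860 gene counts over the 15 mice. Those with the highest mean level were Cox6c, a structural subunit of complex IV (557 CPM), Ndufa2, a matrix-arm accessory subunit of complex I (451 CPM), and Atp5k, the e subunit of ATP synthase (417 CPM). At the other end of the tested members were Cox7c (9.39 CPM), Atp5g1 (9.10 CPM) and Cox5b (7.04 CPM). Cox7c and Cox5b belong to a complex whose subunits are assembled in fixed proportions, while Atp5g1 encodes the same subunit as Atp5g2 and Atp5g3. The spread of levels within complexes can be seen in the plot of mean levels. How uniquely reads map also differed between members, and its part in the levels was not tested: of the 83 members with a GENCODE M21 model, 10 share 50% or more of the 50-base words in their transcripts' last 300 bases with another gene. The median level of those 10 was 33.6 CPM, against 96.1 CPM in the other 73. They include Cox7c (65.2% shared), Uqcrc2 (100%), Atp5l (70.1%), Atp5o (62.0%), Cox5a (69.3%) and Atp5h (50.0%). For 8 of the 10 the sharing genes include pseudogenes, from which such reads could not be told apart by sequence. For Uqcrc2 and Ndufb6 the only sharing gene, Pdzd9 and Smim27 respectively, overlaps the same 3' end, so such reads map to the same place and only their assignment to a gene is uncertain.

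**Figure D1:**
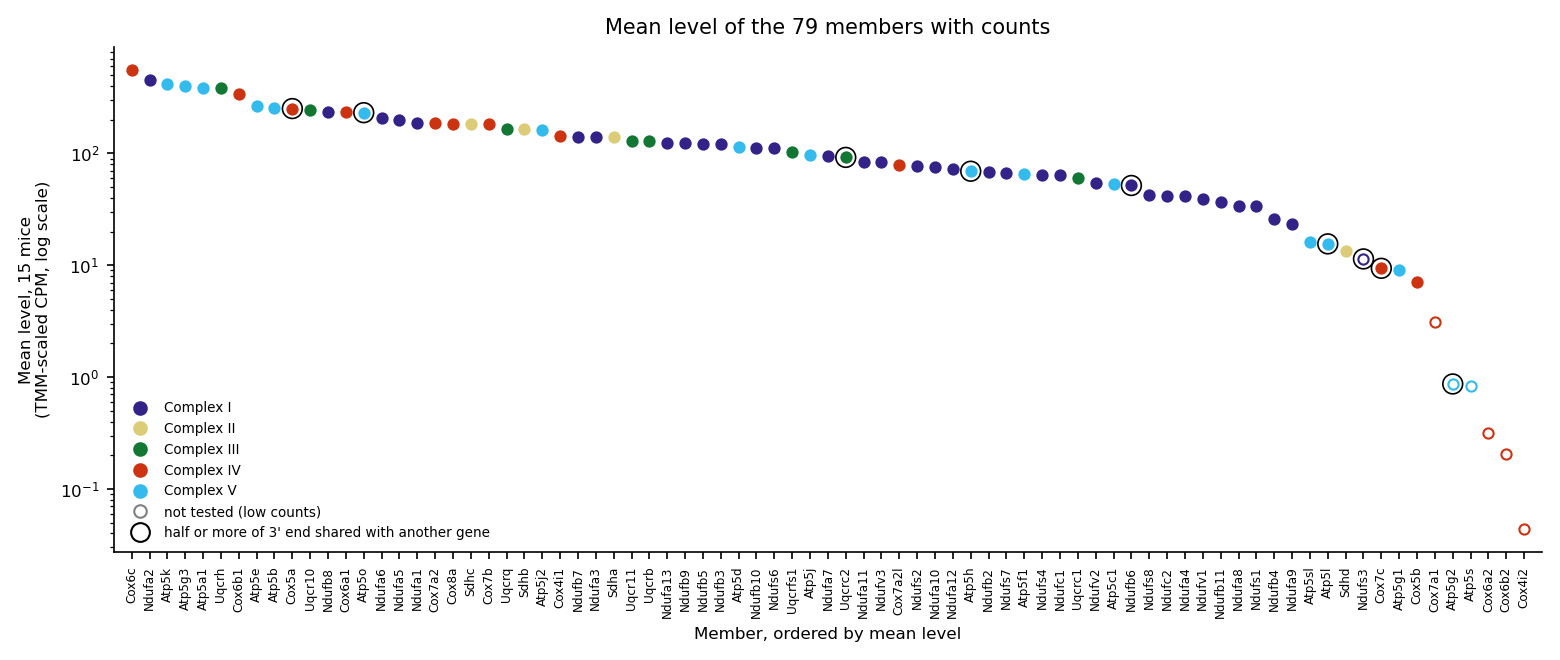
Mean TMM-scaled CPM over 15 mice of the 79 members with counts, ranked on a log axis and coloured by complex; open points were too low to be tested and a black ring marks members sharing 50% or more of their 3' end words with another gene. Levels run from Cox6c at 557 CPM down, with the ringed members mostly in the lower part.

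Of the 5 members without a count in any library, Cox7b2, Cox8b, Cox8c and Ndufa4l2 are tissue-restricted or inducible relatives of widely expressed subunits, and 0 counts in all 15 libraries allow up to 0.129 CPM over the series. The fifth is Ndufs5, a complex I subunit of all tissues, and 54.6% of its 3' end words are shared. Of the 7 members with counts that stayed below the filter, 5 are tissue-restricted or minor forms: Cox7a1 (75 counts in 9 libraries), Atp5g2 (23 in 5), Cox6a2 (10 in 4), Cox6b2 (7 in 4) and Cox4i2 (1 in 1). The others were Atp5s, a factor that is not a structural subunit (31 in 5), and Ndufs3, a core subunit of complex I (216 in 13). Of the Ndufs3 counts, 79 were in wild type CCl4 mouse 5.

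The ubiquitous or liver-type form took nearly all counts of each isoform set. Cox7a2 held 98.4% of the counts of Cox7a1 and Cox7a2, Cox6a1 held 99.8% against its muscle form Cox6a2, and Cox6b1 held 99.9% against its testis form Cox6b2. Of the 3 genes that encode the identical c subunit of the ATP synthase ring, Atp5g3 held 97.4%, Atp5g1 2.34% and Atp5g2 0.241%. The share of Atp5g2 is uncertain because 99.0% of its 3' end words occur elsewhere. In 12 two-sided exact permutation tests on these shares between groups, all adjusted p were 1.00 (Benjamini-Hochberg). Without ties, the smallest unadjusted p that 5 against 5 mice allow is 0.00794. The tests of Cox6a1 and Cox6b1 could not reach it. Cox6a2 and Cox6b2 had counts in only 4 libraries each, so most of these shares were tied at 100%. Those tests therefore cannot decide whether the shares of Cox6a1 and Cox6b1 differed.

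The start regions of the members were compared for motifs of factors known to act on respiratory genes. NRF1, a regulator of nuclear-encoded mitochondrial genes, binds GCGCA and GCGC with any base between them, a word that was found on either strand in 18 of 71 windows of 250 bases before to 50 after the RefSeq start (25.4%) of 66 members, against 4.60% of 32851 windows of all genes. The ETS-type word CCGGAAGT was in 5 (7.0% against 3.89%), AAGATGGCG of YY1 in 7 (9.9% against 1.40%) and TCAAGGTCA of the oestrogen-related receptors in 2 (2.8% against 0.42%). No matches of different motifs overlapped, and 43 of the 71 windows held none of the 4 words. GC content differed too, with a median of 57.3% in members' windows and 52.7% in all. The upstream 250 bases are shown for 3 abundant members, in GRCm38.p6 from RefSeq: Cox6a1, which holds a pair of NRF1 words, Atp5g3, which holds the receptor word here and an NRF1 word just past its start, and Cox5a, which holds none and had the smallest p of all members. Capitals mark the matched words, and each sequence ends at the base before the start.
Cox6a1 promoter (chr5:115348959-115349208, minus strand): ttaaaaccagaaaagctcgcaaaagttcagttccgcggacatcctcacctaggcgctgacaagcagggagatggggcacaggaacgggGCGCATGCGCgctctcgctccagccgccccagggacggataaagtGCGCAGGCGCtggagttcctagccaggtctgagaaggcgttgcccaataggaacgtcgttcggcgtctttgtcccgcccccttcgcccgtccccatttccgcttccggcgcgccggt
Atp5g3 promoter (chr2:73911327-73911576, minus strand): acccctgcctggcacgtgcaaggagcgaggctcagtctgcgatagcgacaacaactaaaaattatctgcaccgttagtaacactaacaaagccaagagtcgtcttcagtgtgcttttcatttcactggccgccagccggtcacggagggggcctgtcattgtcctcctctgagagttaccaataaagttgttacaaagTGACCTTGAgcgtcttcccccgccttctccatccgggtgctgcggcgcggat
Cox5a promoter (chr9:57520982-57521231, plus strand): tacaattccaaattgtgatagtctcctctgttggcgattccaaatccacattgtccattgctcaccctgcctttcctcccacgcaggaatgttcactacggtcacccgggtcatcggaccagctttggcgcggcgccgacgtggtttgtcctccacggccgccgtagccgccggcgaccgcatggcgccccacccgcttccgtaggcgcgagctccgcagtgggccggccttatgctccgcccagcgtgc
A match describes the letters and is no evidence of binding. The 15 tested members with an NRF1 word had a median log2 difference of -0.31 between wild type CCl4 and oil, and the 44 with a window but no such word had -0.38. The corresponding medians were 0.30 and 0.28 for Trem1-deficient against wild type CCl4, and -0.19 and -0.06 for Trem1-deficient CCl4 against wild type oil.

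Summed over all members, the level was 9327 to 12395 CPM with oil (mean 10603), 6959 to 11064 in wild type with CCl4 (mean 9198) and 9006 to 10717 in Trem1-deficient mice (mean 10213). The ranges of the 3 groups overlapped. As a share of raw gene counts, members took 0.978 to 1.24% with oil, 0.555 to 0.999% in wild type with CCl4 and 0.983 to 1.26% in Trem1-deficient mice. On this scale wild type CCl4 mice 1 to 4 lay below every mouse of the other groups, while mouse 5 did not. With the ribosomal precursor Rn45s and the nuclear RNA Malat1 taken out of the total, the summed level was 11075 to 14028 CPM with oil, 7416.9 to 11531 in wild type with CCl4 and 10835 to 13721 in Trem1-deficient mice, and the groups overlapped. Wild type CCl4 mice 1 and 5 are numbered in the plot of complex sums because their libraries stood apart. Mouse 1 had 143317 CPM of Malat1, against at most 22215 in any other mouse, and mouse 5 had 16 members at 0, of which 5 were tested ones. The sum for complex IV was 2312 ± 410 CPM (SD, n = 5) with oil, 1819 ± 196 in wild type with CCl4 and 2408 ± 244 in Trem1-deficient mice, and that for complex I was 3732 ± 533, 3192 ± 623 and 3478 ± 115. Complex III had 1348 ± 329, 1318 ± 369 and 1247 ± 161 CPM in the same order.

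**Figure D2:**
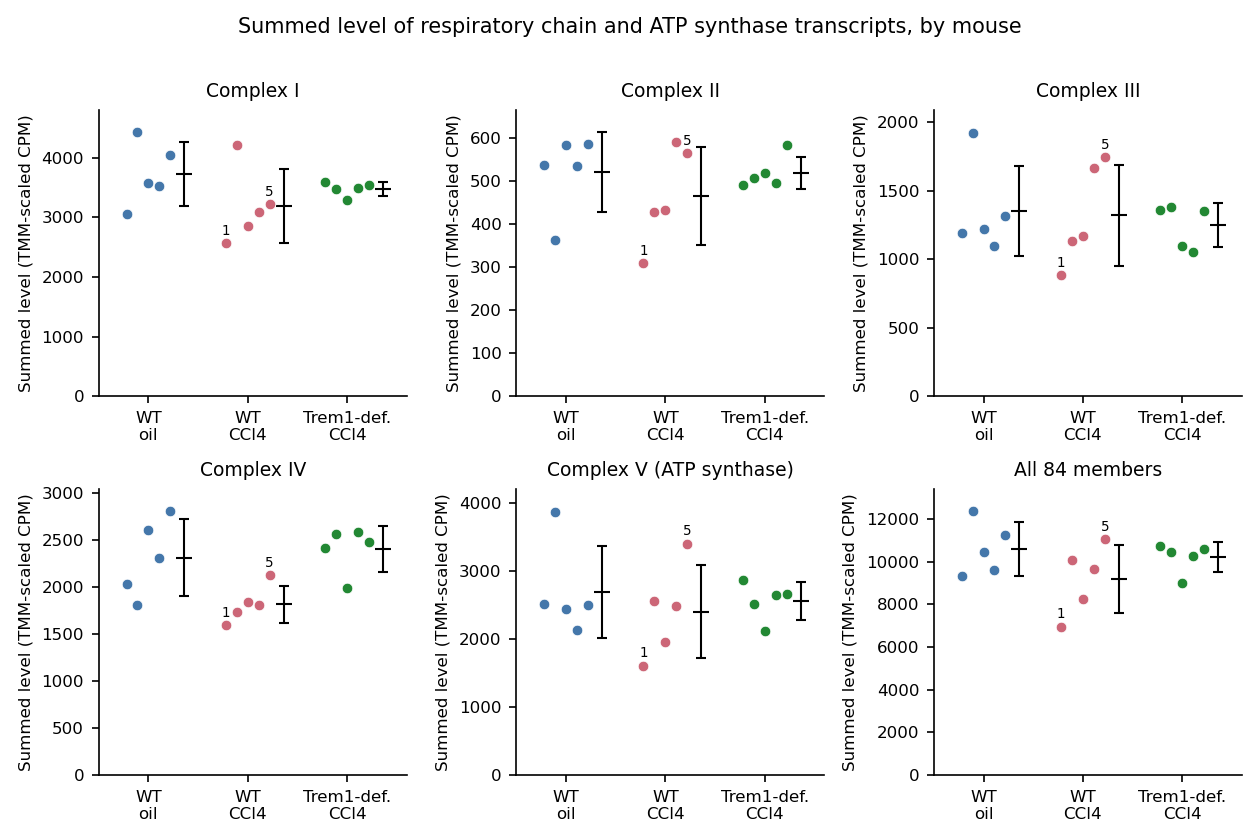
Summed TMM-scaled CPM of the members of each complex and of all 84 members, 1 dot per mouse, with bars at the mean and SD of 5 mice per group; wild type CCl4 mice 1 and 5 carry their numbers. The groups overlap in every panel.

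In wild type mice, cells taken 12 h after CCl4 were compared with those taken after oil, and no member passed the test. At an adjusted p under 0.05, edgeR called 0 of 72 higher or lower, where 5.13% of all 9001 tested genes were called. These wild type groups also differed in marker levels, index run and sex-linked transcripts, as given above. At an unadjusted p under 0.05 there were 5 members, all lower, against a background of 19% of all genes in either direction and 8.44% lower. DESeq2 called 2 (Cox5a and Ndufa12) and limma's voom 1 (Cox5a). The median log2 difference of the members was -0.30, against 0.06 over all tested genes, and 46 of 72 were below 0 (48.3% of all genes). By complex the medians were -0.14 for I, -0.40 for II, -0.02 for III, -0.51 for IV and -0.31 for V. The members' median thus lay at -0.35 relative to that of all genes. This gap was -0.37 under upper-quartile scaling, -0.19 with a replicate block and -0.060 with the index run as a term, where the members' own median was -0.040. Only the Trem1-deficient mice span both index runs, so that term rests on them alone and carries their difference over to the wild type groups. Without oil mouse 5 the members' median was -0.14, without wild type CCl4 mouse 3 it was -0.17 and without mouse 1 it was -0.20. With wild type CCl4 mice 1 and 5 left out, a choice made after seeing the data, the members' median was -0.24 and that of all genes -0.10, and Cox5a and Ndufa12 were called. Leaving out wild type CCl4 mouse 1 alone gave 3 calls (Cox5a, Ndufa12 and Ndufa5), and leaving out mouse 5 or oil mouse 2 gave Cox5a alone.

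Cox5a, a matrix-side subunit of cytochrome c oxidase found in every form of the enzyme (ENSMUSG00000000088.7, GRCm38 chr9:57521274-57532426, plus strand), came nearest to the threshold. Its levels were 393, 142, 346, 236 and 461 CPM in oil mice 1 to 5, 150, 63.4, 96.9, 172 and 211 in wild type CCl4 mice 1 to 5, and 253, 311, 236, 434 and 268 in Trem1-deficient mice 1 to 5. Oil mouse 2 lay among the wild type CCl4 mice, and the other oil mice lay above them. The log2 difference between CCl4 and oil was -1.19 ± 0.37 with an adjusted p of 0.0535. Over 26 alternatives the adjusted p ran from 0.0104 to 0.745 and passed the threshold in 11. Taken as a share of complex IV counts, which needs no scaling between libraries, Cox5a was 7.85 to 19.4% with oil, 3.67 to 9.94% in wild type with CCl4 and 10.5 to 16.8% in Trem1-deficient mice. Its 3' end overlaps the predicted gene Gm26631, and without a stated strand setting their reads cannot be told apart.

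Ndufa12, an accessory subunit of the matrix arm of complex I (ENSMUSG00000020022.17, chr10:94198720-94221443, plus strand), was at 144, 98.7, 88.7, 121 and 72.04 CPM with oil, 89.8, 12.9, 26.3, 6.77 and 2.73 in wild type with CCl4 and 112, 55.1, 119, 78.0 and 68.7 in Trem1-deficient mice. Of the wild type CCl4 mice, mouse 1 lay within the range of the other groups and the other 4 lay below it. The difference from oil was -1.90 ± 0.65 (adjusted p 0.0860; 0.00205 to 0.870 over alternatives, past the threshold in 6 of 26).

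Ndufa5, another accessory subunit of that arm (ENSMUSG00000023089.12, chr6:24518666-24528013, minus strand), was at 172, 206, 273, 236 and 277 CPM with oil and at 174, 119, 168, 36.1 and 40.9 in wild type with CCl4. It was at 250, 214, 307, 276 and 230 CPM in Trem1-deficient mice. Wild type CCl4 mice 4 and 5 were the lowest, and mouse 1 overlapped oil mouse 1. The difference from oil was -1.11 ± 0.40 with an adjusted p of 0.0996 (0.0328 to 0.790 over alternatives). None of its 3' end words is shared.

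Ndufa13, a complex I subunit also known as a regulator of cell death, was at 155, 92.5, 169, 130 and 214 CPM with oil, 82.5, 98.1, 93.1, 19.2 and 43.6 in wild type with CCl4 and 181, 178, 132, 220 and 67.0 in Trem1-deficient mice. Oil mouse 2 and Trem1-deficient mouse 5 fell inside the range of wild type CCl4 mice. The difference between CCl4 and oil was -1.18 ± 0.46 (adjusted p 0.140).

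Cox6b1, a subunit on the intermembrane-space side of complex IV, was at 303, 192, 429, 516 and 476 CPM with oil, 286, 255, 254, 234 and 203 in wild type with CCl4 and 363, 397, 285, 410 and 544 in Trem1-deficient mice. Oil mouse 2 was again the exception, below all 5 wild type CCl4 mice. The difference was -0.64 ± 0.30 (adjusted p 0.248).

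Atp5k, the e subunit of the membrane part of ATP synthase, was at 419, 751, 420, 411 and 451 CPM with oil, 210, 420, 298, 232 and 453 in wild type with CCl4 and 539, 363, 316, 468 and 502 in Trem1-deficient mice. Oil mouse 2 stood highest, and wild type CCl4 mice 2 and 5 lay among the oil mice. The difference was -0.60 ± 0.30 (adjusted p 0.266).

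Atp5h, the d subunit of the peripheral stalk of ATP synthase, was the only member that lay wholly lower in this comparison. That is 1.39% of the tested members, against 3.44% of all genes. It was at 77.8, 125, 77.4, 113 and 85.2 CPM with oil and at 40.6, 55.5, 43.3, 75.6 and 60.0 in wild type with CCl4. The Trem1-deficient mice were at 50.0, 60.8, 65.6, 49.1 and 61.2 CPM, all below the oil mice. The difference between CCl4 and oil was -0.79 ± 0.49 (adjusted p 0.405).

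**Figure D3:**
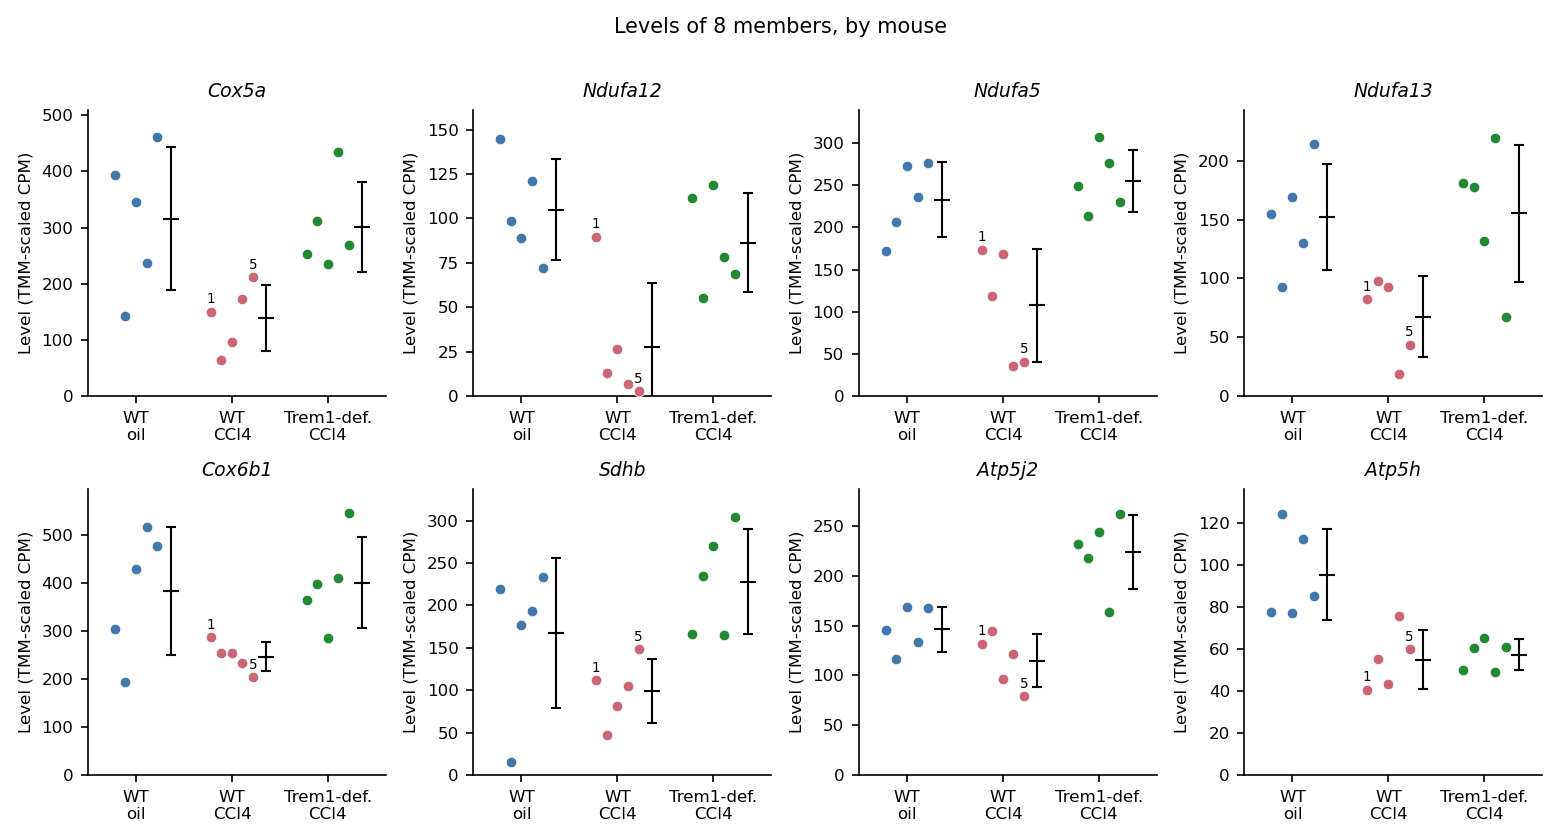
TMM-scaled CPM per mouse of Cox5a, Ndufa12, Ndufa5, Ndufa13, Cox6b1, Sdhb, Atp5j2 and Atp5h in the 3 groups, with bars at the mean and SD of 5 mice (drawn from 0 where the SD would pass it). Only Atp5h separates the wild type groups, while Ndufa5, Cox5a, Atp5j2 and Sdhb separate the 2 CCl4 groups.

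Subunits that carry active sites or electrons had estimates on both sides of 0 in this comparison, with wide errors. The iron-sulphur subunits Ndufs7, Ndufv2, Sdhb and Ndufs1 had log2 differences of -1.25 ± 0.73, -0.90 ± 0.61, -0.76 ± 0.47 and -0.55 ± 0.79. Ndufs7 was at 268 CPM in oil mouse 2, against 21.8 to 75.3 in the other oil mice. Ndufs8, another iron-sulphur subunit, had a higher mean with CCl4, at 33.5 ± 27.5 CPM (SD, n = 5) with oil and 44.7 ± 47.7 with CCl4. Ndufv1, which carries the NADH site of complex I, was at 38.9 ± 17.5 CPM (SD, n = 5) with oil and 40.8 ± 35.9 with CCl4. Sdha, the flavoprotein of complex II, was at 133 ± 15.0 and 163 ± 83.5 CPM. Uqcrfs1, the Rieske iron-sulphur protein of complex III, was at 98.1 ± 38.9 and 123 ± 35.8 CPM. The log2 differences of Ndufv1, Sdha and Uqcrfs1 were 0.07 ± 0.80, 0.29 ± 0.39 and 0.33 ± 0.42. Atp5b, the catalytic beta subunit of ATP synthase, differed by -0.02 ± 0.36, with a 95% interval of -0.74 to 0.71, and Cox6c by 0.02 ± 0.27, with an interval of -0.53 to 0.57. Atp5a1, the alpha subunit of ATP synthase, was at 409 ± 171 and 419 ± 308 CPM. Of its wild type CCl4 mice, mouse 5 was at 954 CPM and mice 1 to 4 were at 214 to 392. Uqcrc1, a core protein of complex III, was at 63.5 ± 24.1 and 52.4 ± 47.9 CPM. For most members the data allow sizeable changes: the 95% interval lay within 2-fold either way for 11 of 72 and within 4-fold for 55. The median standard error of the members was 0.49 on the log2 scale, against 0.90 for all tested genes.

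**Figure D4:**
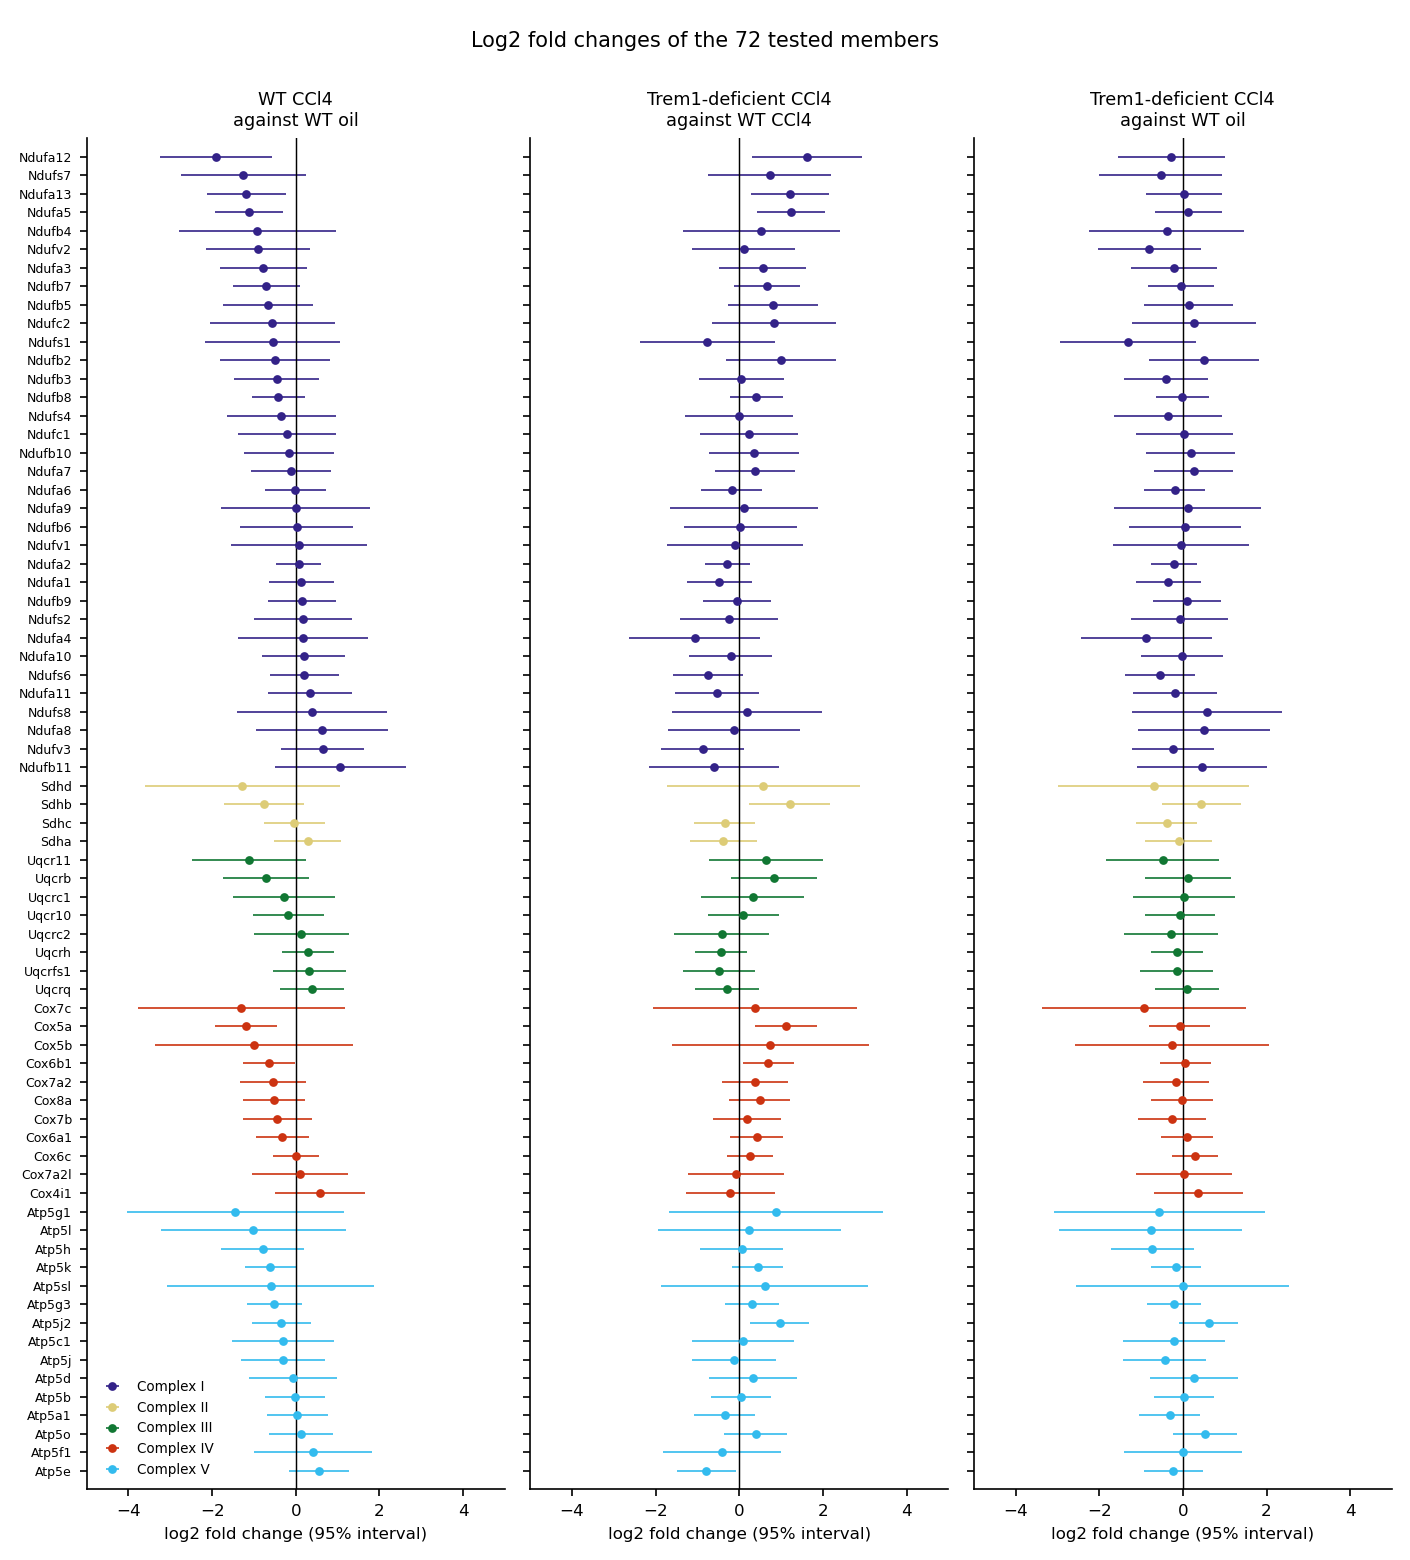
Log2 differences of the 72 tested members with 95% intervals from edgeR, in 3 panels for the 3 comparisons and ordered by complex. None passed the adjusted threshold, and the estimates of complexes IV and V lie mostly left of 0 for wild type CCl4 against oil and mostly right of 0 for Trem1-deficient against wild type CCl4.

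Trem1-deficient mice were also compared with wild type mice, both with CCl4. Without a deficient group given oil, a part of the receptor in the response cannot be told apart from a genotype difference present without CCl4. This comparison shares the 5 wild type CCl4 mice with the one above, so the opposite signs of the estimates are not independent. Again edgeR called 0 of 72 members, where 2.06% of all tested genes were called. At an unadjusted p under 0.05 there were 8 members, 7 higher and 1 lower, against a background of 15.2% in either direction, 6.79% higher and 8.37% lower. DESeq2 called 2 (Atp5j2 and Ndufa5) and voom 0. The median log2 difference was 0.18, against -0.03 over all genes, and 45 of 72 members were above 0 (49.1% of all genes). Complex IV had a median of 0.38 and complex V of 0.24, with 9 of 11 and 11 of 15 members above 0, while complexes I, II and III had medians of 0.08, 0.11 and -0.09. Leaving out wild type CCl4 mouse 3 alone took the members' median to 0.02 and its gap to that of all genes from 0.21 to 0.018, and leaving out mouse 1 alone took them to 0.07 and 0.057. The gap was 0.021 with a replicate block. Scaling by gene totals gave a median of 0.45 for members and 0.27 for all genes. Within the index run that holds Trem1-deficient mice 3 to 5, the median was 0.12 for members and -0.11 for all genes, and 0 members were called. Ndufa12 and Ndufa5 were called without wild type CCl4 mouse 1, Cox5a without mouse 5, and Atp5o, Cox5a, Ndufa12 and Ndufa5 without both.

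Of the members, 4 lay wholly higher in Trem1-deficient than in wild type CCl4 mice (3.42% of all genes did): Ndufa5, Cox5a, Atp5j2 and Sdhb. Ndufa5 differed by 1.24 ± 0.40 (adjusted p 0.0959; 0.0200 to 0.410 over 27 alternatives) and Cox5a by 1.11 ± 0.37 (adjusted p 0.107; 0.0262 to 0.410). Their per-mouse levels are given above. Ndufa12 differed by 1.62 ± 0.65 (adjusted p 0.210) and Ndufa13 by 1.21 ± 0.46 (adjusted p 0.186), with 1 or more mice of each group inside the other's range.

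Atp5j2, the f subunit of the membrane part of ATP synthase, was at 145, 116, 168, 133 and 168 CPM with oil, 132, 145, 96.9, 122 and 79.1 in wild type with CCl4 and 232, 218, 244, 163 and 262 in Trem1-deficient mice. The wild type groups overlapped and the Trem1-deficient mice lay above all wild type CCl4 mice. The difference between the CCl4 groups was 0.96 ± 0.35 (adjusted p 0.154; 0.0390 to 0.667 over alternatives).

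Sdhb, the iron-sulphur subunit of complex II (ENSMUSG00000009863.14, chr4:140961203-140979193, plus strand), was at 219, 14.8, 177, 193 and 233 CPM with oil, 112, 47.6, 81.8, 105 and 149 in wild type with CCl4 and 166, 234, 270, 165 and 304 in Trem1-deficient mice. Oil mouse 2 was far below all other mice, and the remaining oil mice lay above all wild type CCl4 mice. The difference between the CCl4 groups was 1.20 ± 0.47 (adjusted p 0.203). Among the other 3 subunits of complex II, Sdha differed by -0.38 ± 0.39, Sdhc by -0.35 ± 0.36 and Sdhd by 0.57 ± 1.13.

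Atp5e, the epsilon subunit of the central stalk of ATP synthase, had the only lower value with an unadjusted p under 0.05. It was at 268, 173, 298, 164 and 290 CPM with oil, 182, 234, 304, 349 and 690 in wild type with CCl4 and 267, 204, 191, 214 and 141 in Trem1-deficient mice. Wild type CCl4 mouse 5 stood highest, and the groups overlapped. The difference was -0.79 ± 0.35 (adjusted p 0.269).

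Trem1-deficient CCl4 against wild type oil mice differed in both genotype and treatment. edgeR called 0 of 72 members (0.233% of all genes), 0 had an unadjusted p under 0.05 (4.66% of all genes), and DESeq2 and voom called 0. The median log2 difference was -0.08 against 0.02 over all genes, and 43 of 72 were below 0 (48.8% of all genes). The 95% interval lay within 2-fold either way for 21 members and within 4-fold for 59. A single member lay wholly higher (1.63% of all genes) and a single one wholly lower (1.27%), both of the peripheral stalk of ATP synthase. The higher one was Atp5o, at 223, 255, 166, 138 and 199 CPM with oil and 259, 277, 294, 306 and 275 in Trem1-deficient mice (0.52 ± 0.37). Its wild type CCl4 mice spread from 100 to 489 CPM. The lower one was Atp5h, with the levels above and a difference of -0.73 ± 0.49. The smallest p belonged to Atp5j2, which differed by 0.61 ± 0.34 with an adjusted p of 1.00. In complex I, Ndufs6, a zinc-binding subunit, was at 117 ± 25.5 CPM (SD, n = 5) with oil, 136 ± 44.4 in wild type with CCl4 and 80.5 ± 26.5 in Trem1-deficient mice. Ndufv2, an iron-sulphur subunit of the NADH module, was at 76.9 ± 41.0, 41.2 ± 23.6 and 44.1 ± 16.1 CPM. Their differences between Trem1-deficient and oil mice were -0.54 ± 0.41 and -0.80 ± 0.60, within the spread between mice.

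Mice of one group differed from each other more in wild type with CCl4 than in the other groups. The median SD of a member's log2 level within a group was 0.57 with oil, 0.93 in wild type with CCl4 and 0.40 in Trem1-deficient mice. The same order held over all tested genes (1.17, 1.69 and 0.72), which had a lower median level (31.9 against 111 CPM).

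Genes that work with the complexes were read from fixed lists. None of 33 tested assembly factors, 21 enzymes of the tricarboxylic acid cycle, 67 mitochondrial ribosomal proteins, 13 genes of ubiquinone synthesis and electron supply, 11 carriers and channels, 15 regulators of mitochondrial gene expression and 8 further subunits and carriers was called in any of the 3 comparisons. Among 23 protein import genes, 2 rose in wild type mice with CCl4, where 5.13% of all tested genes were called in either direction. Hspd1, the matrix chaperonin, was at 40.8 to 74.0 CPM with oil and 183 to 340 in wild type with CCl4 (2.24 ± 0.38, adjusted p 0.000269), and at 83.1 to 148 in Trem1-deficient mice. With the index run as a term, which rests on the Trem1-deficient mice alone, the adjusted p of Hspd1 was 0.288 by edgeR. It was below the threshold in the other 25 alternatives, the lowest at 1.57e-09. Hspe1, its co-chaperonin, rose by 1.83 ± 0.54 (adjusted p 0.0448), a call that held in 8 of 26 alternatives (adjusted p 0.00241 to 0.886). The median log2 difference of the mitochondrial ribosomal proteins was -0.12 for wild type CCl4 against oil and 0.42 for Trem1-deficient against wild type CCl4, and that of the assembly factors -0.22 and 0.35.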

How the data were processed

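The table deposited by the authors gives unnormalised read counts for each gene, 1 column per mouse, from Lexogen QuantSeq 3' libraries per the labels' protocols. The submitters' processing notes name Trimmomatic, STAR 2.5.1a, Partek 6.6 and mm10 without role or order, and the file headers carry the name of STAR's table of reads per gene. The sources used here give neither annotation nor strand setting, and no molecular identifiers are mentioned, so floors cover counting error only. The labels list 60 entries, 4 lanes for each of 15 separate mice, and nothing in them pairs mice between groups. The 4 tally rows were kept out (genes held 12.6 to 28.8% of tallied reads).

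One fit of all 3 groups was made with edgeR 4.0.16 in R 4.3.3 (TMM, filterByExpr, robust quasi-likelihood test, 12 residual degrees of freedom, Benjamini-Hochberg adjustment over 9001 genes, threshold 0.05). Alternatives used other scalings and filters, DESeq2 1.42.0, limma 3.58.1 voom, an index-run term, a replicate block and left-out mice. The index-run term was estimated from the Trem1-deficient mice, the only group in both runs. Scripts were tested on simulated counts. Members and lists were chosen with earlier results of these data known. The text names the 6 members with the smallest p per comparison, a list of core subunits and isoforms, the 3 highest and 3 lowest tested members, and up to 3 called genes per list. Other members, such as Atp5e, Ndufs7, Ndufs8, Sdhc and Sdhd, were named after their values were seen. Positions and 3' end words come from GENCODE M21 (GRCm38), promoters from RefSeq; protein sequences were not used.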

Additional observations from a re-analysis of the deposited data

Results flagged for a closer look

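In groups of 5 mice, 57 sets of values were screened for a mouse far from the other 4, and 7 stood out. Chance gives about 1 in 20 where values are normally spread, which was not tested here. The sets are not independent, since the complex II sum includes Sdhb and the complex V sum includes Atp5k. Oil mouse 2 accounted for 5 of the 7. Its Sdhb level was 14.8 CPM, with the nearest oil mouse at 177, and its complex II sum was 361 CPM, with the nearest at 535. Its sums for complexes III and V were the highest of the oil mice, at 1920 CPM (nearest 1315) and 3863 CPM (nearest 2521), and so was Atp5k at 751 CPM (nearest 451). The same mouse had the highest ribosomal precursor Rn45s of all mice, at 187888 CPM of the gene total. Wild type CCl4 mouse 1 stood out for Ndufa12, at 89.8 CPM with the nearest at 26.3, and for Malat1, at 143317 CPM with the nearest at 22215. What sets these mice apart was not tested.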

How the results depend on the processing

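For wild type CCl4 against oil, the count of members called (0) became 1 under upper-quartile scaling, 3 by gene totals, 2 without a low-count filter, 1 with a mean of 10 CPM or more, 2 with DESeq2, 1 with voom, 2 with a replicate block, 0 to 3 with single mice left out, and 2 without wild type CCl4 mice 1 and 5 (added after seeing the data). It was 3 without wild type CCl4 mouse 1 and 1 each without wild type CCl4 mouse 5 and oil mouse 2. The members' median (-0.30) was -0.48 under upper-quartile scaling, -0.48 with voom and -0.040 with the index run as a term, and -0.38 to -0.14 with single mice left out. For Trem1-deficient against wild type CCl4 the count (0) became 3 by gene totals, 2 with DESeq2, 0 to 2 with single mice left out (2 without wild type CCl4 mouse 1, 1 without mouse 5) and 4 without both of those mice. The median (0.18) was 0.43 under upper-quartile scaling, 0.45 by gene totals, 0.44 with voom and 0.02 to 0.27 with single mice left out. For Trem1-deficient CCl4 against oil the count stayed at 0, with medians of -0.15 to 0.01 with single mice left out and 0.016 by gene totals. The cause was not tested.

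Over all genes, the 462 calls of the first comparison became 813 without a filter, 1015 with DESeq2, 722 with voom, 37 with the index term, 302 without oil mouse 3, 759 without wild type CCl4 mouse 1 and 724 without mice 1 and 5. The 185 of the second became 310 by gene totals, 563, 608, 431 and 77 under the same 4 settings, 57 within 1 index run, 88 to 508 with single mice left out and 506 without both. The 21 of the third became 73, 75, 217 and 11, and 12 to 31. Counts with the index term rest on the run difference within the Trem1-deficient mice alone. After group means were subtracted, log2 levels of same-numbered mice correlated at -0.058 to 0.041 over 15 pairs. Those of other-numbered mice correlated at -0.111 to 0.096 over 60 pairs. These values gave no sign that the numbers pair the mice. Depth limits the low members: 3 counts were worth up to 3.69 CPM.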

Other observations

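The naming rule also takes in genes whose place in the complexes differs from their symbol. Ndufa4, named for complex I and now assigned to complex IV, was at 46.3 ± 51.6 CPM (SD, n = 5) with oil, 52.5 ± 28.9 in wild type with CCl4 and 25.1 ± 15.3 in Trem1-deficient mice, and no difference was called (-1.06 ± 0.77 on the log2 scale between the CCl4 groups). Cox7a2l, a factor that joins complexes III and IV, was at 76.5 ± 34.4, 82.0 ± 51.2 and 77.8 ± 41.6 CPM in the same order. Cox4i1, the ubiquitous form of the regulatory subunit 4, was at 113 ± 64.7, 170 ± 117.0 and 146 ± 40.9 CPM. Ndufs1, the iron-sulphur subunit at the end of the NADH module, was at 48.9 ± 26.3, 33.2 ± 21.1 and 19.6 ± 10.3 CPM, and its difference between Trem1-deficient CCl4 and oil mice was -1.31 ± 0.80 (edgeR, adjusted p 1.00).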
